A study of Homo sapiens with 12 samples.

Results

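The AP-1 family genes described here are the 8 members JUN, JUNB, JUND, FOS, FOSB, FOSL1, FOSL2 and ATF3, found by symbol among the 25369 genes of the deposited tables. All 8 were found and all 8 passed the filter for testing, which kept the 14627 genes that reached 10 normalized counts in 3 or more libraries. AP-1 is a dimeric transcription factor of the basic leucine zipper (bZIP) class. JUN proteins pair with one another or with FOS proteins, FOS proteins need a JUN partner, and ATF3 pairs with JUN proteins or with itself. Several of these genes are immediate early genes: growth factors, cytokines and stress induce their transcription within minutes through MAP kinases, and their messenger RNAs are known for short lives. In HEK293 cells the family is widely used as a readout of such signalling.

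RNA was sequenced from HEK293T, a human embryonic kidney line chosen in many laboratories for transfection (the growth protocol calls it HEK293). A plasmid was transfected that encodes either the Halo tag on its own (Control) or the tag joined to residues 196 to 346 of TNIP2 (TNIP2 fragment). The Halo tag is an engineered enzyme that binds its ligand covalently, so a tagged protein can be purified with what is attached to it. TNIP2, also called ABIN-2, is an adaptor protein of NF-kB and MAP kinase signalling. Each construct was sampled as whole-cell extract (Input, RNA from 100 µl) and as material purified through the tag (Pulldown, RNA from 90 µl), with 3 libraries in each of the 4 groups. All cells carry endogenous TNIP2, no group is untransfected, and the fragment is part of the protein only. The labels do not say whether replicates are separate transfections, and the p-values therefore speak only of the variation among these libraries, which can be technical.

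The libraries held the following numbers of reads assigned to genes, as recovered from the FPKM values: 13787706 to 20782545 in Control Input, 3590456 to 6402840 in Control Pulldown, 8895314 to 16752301 in TNIP2 Input and 10309211 to 29515306 with the fragment in Pulldown. TNIP2 itself was at 272 to 304.0 normalized counts in Control Input and at 13318 to 46568 in TNIP2 Input, in the direction of the labels. In Control Pulldown it was at 1472, 309 and 391, the first library being 4.21 times the mean of the other 2. No member's call changed when that library was left out. Of 5 markers named for HEK293 lines, NEFL lay between 456 and 5363 normalized counts, NEFM between 71 and 480, LHX1 between 14 and 113, GATA3 between 5 and 92 and PAX2 between 2 and 22. Of 4 blood markers, CD3E and HBB were at 0 in every library, PTPRC reached 1 and HBA1 reached 6. Among markers of fibroblast, endothelium and hepatocyte, COL1A1 lay between 15 and 86 and ALB between 0 and 33, and the other 5 reached at most 23. In bulk RNA, a change in how many cells hold a transcript and a change in its level per cell cannot be told apart.

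The question put to each gene was whether its RNA was more abundant in the material purified with the TNIP2 fragment than in the matching extract, and than in the material purified with the tag alone. JUN, JUNB, JUND, FOSL2 and ATF3 were higher in TNIP2 Pulldown on both counts, by 2.02-fold to 6.63-fold over TNIP2 Input and by 2.65-fold to 7.02-fold over Control Pulldown. FOS, FOSB and FOSL1 passed the test in neither comparison. These 5 of 8 members stand beside 29.8% of all genes tested that were called higher and 28.3% called lower against TNIP2 Input, and 30.6% higher and 28.7% lower against Control Pulldown. No member was called lower in either. The median log2 fold change of the 8 members was 1.18 against TNIP2 Input and 1.46 against Control Pulldown, where the medians of all genes tested were 0.01 and 0.03. Both comparisons use the same TNIP2 Pulldown libraries. Fold changes are of log2(normalized count + 1), and calls are at an adjusted p under 0.05 from limma, with Benjamini-Hochberg adjustment over all genes tested.

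**Figure D1:**
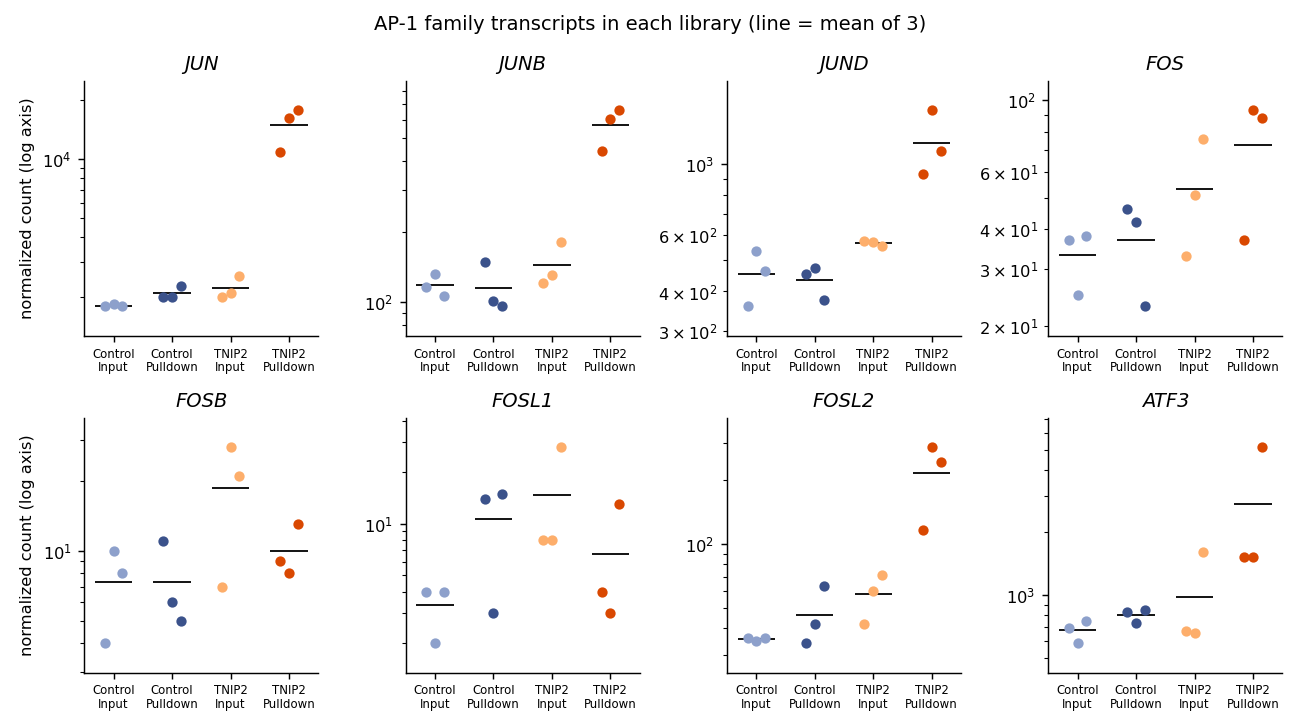
Normalized counts of the 8 AP-1 family genes in each of the 12 libraries, by group, on a log axis; each point is a library and each horizontal line a group mean, and every panel has its own axis. JUN, JUNB, JUND and FOSL2 have all 3 TNIP2 Pulldown libraries above every library of the other groups, while FOS, FOSB, FOSL1 and ATF3 do not.

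Stretches of 60 bases around letters of the cyclic AMP response element (CRE), or letters like them, are printed for 6 members. Such elements are a textbook feature of immediate early promoters, and the 6 include genes that were called and genes that were not. The sequences are from RefSeq on GRCh38.p14, read 5′ to 3′ on the gene's strand, and capitals mark the match to TGACNTCA (JUN, JUND, ATF3) or to TGACGT (FOS, FOSL2, FOSB). The tables used here held a promoter window for 7 of the 8 members, FOSL1 being the member with none. The stretches lie at chr1:58784081-58784140 on the minus strand (JUN), chr19:18281789-18281848 on the minus strand (JUND), chr1:212565258-212565317 on the plus strand (ATF3), chr2:28392765-28392824 on the plus strand (FOSL2), chr14:75278737-75278796 on the plus strand (FOS) and chr19:45467909-45467968 on the plus strand (FOSB).
JUN: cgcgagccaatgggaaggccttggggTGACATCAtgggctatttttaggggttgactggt
JUND: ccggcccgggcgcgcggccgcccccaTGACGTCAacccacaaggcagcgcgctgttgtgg
ATF3: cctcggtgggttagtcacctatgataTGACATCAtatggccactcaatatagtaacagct
FOSL2: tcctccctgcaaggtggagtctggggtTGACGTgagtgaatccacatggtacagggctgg
FOS: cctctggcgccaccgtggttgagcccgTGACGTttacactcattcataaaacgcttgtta
FOSB: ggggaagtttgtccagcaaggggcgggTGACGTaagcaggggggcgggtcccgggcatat

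The windows run from 250 bases before the annotated start to 50 after it, and both strands were searched. The first base of the match lay at -67 from the start in JUN, -200 in JUND, -123 in ATF3, -66 in FOSL2, -64 in FOS and -60 in FOSB. TGACNTCA was present in the windows of 9.21% of 27305 genes and TGACGT in those of 9.64%. The JUND match counts for both, since TGACGTCA contains TGACGT. The AP-1 letters TGANTCA were found in 1 of the 7 members, FOSL2, and in 9.37% of genes. The CArG box, the letters bound by serum response factor, was found in 0 of the 7 windows and in 1.29% of all 35116 windows. This share is of windows, while those of the other motifs are of genes. Bases farther than 250 before the start were not searched, so the search cannot show whether these genes lack a CArG box. The JUNB window held none of the 4 motifs. CRE or CRE-like letters therefore occurred in members that were called (JUN, JUND, ATF3, FOSL2) and in members that were not (FOS, FOSB). In JUN and ATF3 the match was TGACATCA, which is CRE-like and does not contain TGACGT. A match is a description of these letters and not of a bound site.

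JUN, the classical partner of the FOS proteins, was the most abundant of the 8 in every group and had the largest fold change of the 8 on the deposited scale. Its normalized counts were 1799, 1830 and 1784 in Control Input and 1988, 2003 and 2260 after purification with the tag alone, against 2002, 2079 and 2562 in TNIP2 Input and 10910, 16148 and 17697 once purified with the fragment. The lowest TNIP2 Pulldown library was above the highest library of any other group, and Control Pulldown lay close to the extracts. Its log2 fold change was 2.73 (SE 0.18, 95% interval 2.36 to 3.10, adjusted p = 2.6e-08) against TNIP2 Input and 2.81 (SE 0.18, adjusted p = 2.0e-08) against Control Pulldown. It ranked 106 and 150 from the top of the 14627 genes tested. The call held under all alternatives tried, and quantile normalization gave 2.08 against TNIP2 Input and 2.18 against Control Pulldown. In the latter, JUNB (2.32) and FOSL2 (2.23) were then above JUN.

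JUNB, a JUN protein that activates transcription less strongly than JUN on many targets, was lower in level than JUN but moved the same way. Its normalized counts were 116, 132 and 106 in Control Input and 149, 101 and 96 after purification with the tag alone, against 121, 131 and 181 in TNIP2 Input and 444, 602 and 658 once purified with the fragment. Again no TNIP2 Pulldown library overlapped another group. The log2 fold change was 1.97 (SE 0.22, 95% interval 1.49 to 2.45, adjusted p = 3.6e-06) against TNIP2 Input and 2.30 (SE 0.22, adjusted p = 7.9e-07) against Control Pulldown.

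JUND, the JUN gene that is expressed broadly in resting cells, rose least among the 3 JUN genes. Its normalized counts were 359, 534 and 463 in Control Input and 455, 473 and 376 after purification with the tag alone, against 576, 573 and 553 in TNIP2 Input and 931, 1472 and 1099 once purified with the fragment. The TNIP2 Pulldown libraries stood apart from the other groups by a smaller margin than those of JUN. The log2 fold change was 1.01 (SE 0.19, 95% interval 0.61 to 1.42, adjusted p = 3.5e-04) against TNIP2 Input and 1.40 (SE 0.19, adjusted p = 1.8e-05) against Control Pulldown. When each library was centred on 77 ribosomal protein genes, the value against TNIP2 Input was 0.51 with an adjusted p of 0.050 and the call was lost.

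The JUN genes were also compared with one another by their ratios. The FPKM ratio of JUN to JUND was 7.64 ± 1.64 (SD, n = 3) in TNIP2 Pulldown, against 2.31 ± 0.372 in TNIP2 Input, 2.88 ± 0.583 in Control Pulldown and 2.42 ± 0.485 in Control Input. On the log2 scale this ratio was 3.28-fold higher in TNIP2 Pulldown than in TNIP2 Input, with no overlap between the libraries (exact permutation test, two-sided, p = 0.10, the smallest that 3 against 3 allows). The ratio of JUN to JUNB was 1.68-fold higher and that of JUNB to JUND 1.95-fold higher, each also without overlap and with an exact permutation p of 0.10. Against Control Pulldown the 3 ratios were 2.65-fold, 1.42-fold and 1.87-fold higher, likewise without overlap. Over the 20 ratio tests made, the Benjamini-Hochberg value of each was 0.20, so none could pass the threshold in this design. A factor common to a whole library cancels in these ratios, but quantile normalization does not act as one. Under it JUN and JUNB were at 2.08 and 1.99 against TNIP2 Input, and at 2.18 and 2.32 against Control Pulldown, so the difference between them shrank in the former and turned in the latter.

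FOSL2, which encodes the FOS protein Fra-2, was the member of the FOS group whose RNA rose. Its normalized counts were 36, 35 and 36 in Control Input and 34, 42 and 63 after purification with the tag alone, against 42, 60 and 71 in TNIP2 Input and 116, 286 and 244 once purified with the fragment. The lowest TNIP2 Pulldown library lay well above the highest value elsewhere, and the pulldown libraries differed among themselves more, relative to their mean, than those of JUNB. The log2 fold change was 1.81 (SE 0.33, 95% interval 1.12 to 2.51, adjusted p = 2.5e-04) against TNIP2 Input and 2.14 (SE 0.33, adjusted p = 5.5e-05) against Control Pulldown.

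FOS, the partner of JUN in the classical AP-1 dimer and the most rapidly induced member, did not pass the test. Its normalized counts were 37, 25 and 38 in Control Input and 46, 42 and 23 after purification with the tag alone, against 33, 51 and 76 in TNIP2 Input and 37, 93 and 88 once purified with the fragment. The first TNIP2 Pulldown library lay within the range of the controls and the other 2 lay above it. The log2 difference was 0.41 (SE 0.40, 95% interval -0.44 to 1.25, adjusted p = 0.39) against TNIP2 Input and 0.90 (SE 0.40, 95% interval 0.06 to 1.75, adjusted p = 0.061) against Control Pulldown. Without the first TNIP2 Pulldown library the latter was 1.33 with an adjusted p of 0.0096. The former changed sign to -0.10 when libraries were centred on ribosomal protein genes. FOS rested on 9 to 183 reads per library.

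FOSB and FOSL1 were near the lower end of what was measured. FOSB, a FOS protein with a known truncated form in brain, was at 4, 10 and 8 normalized counts in Control Input and 11, 6 and 5 after purification with the tag alone, against 7, 28 and 21 in TNIP2 Input and 9, 8 and 13 once purified with the fragment. FOSL1, which encodes Fra-1, was at 4, 2 and 4 in Control Input and 14, 3 and 15 after purification with the tag alone, against 8, 8 and 28 in TNIP2 Input and 4, 3 and 13 once purified with the fragment. Both genes had overlapping groups in each pulldown comparison, and their counts rested on 2 to 40 reads (FOSB) and 2 to 23 reads (FOSL1) per library. Against TNIP2 Input, the log2 difference was -0.67 for FOSB (SE 0.51, 95% interval -1.77 to 0.43, adjusted p = 0.28) and -1.02 for FOSL1 (SE 0.66, 95% interval -2.44 to 0.40, adjusted p = 0.20). Against Control Pulldown it was 0.44 for FOSB (95% interval -0.66 to 1.54, adjusted p = 0.48) and -0.59 for FOSL1 (95% interval -2.01 to 0.83, adjusted p = 0.46). Leaving out 1 library at a time gave -1.23 to -0.30 for FOSB and -1.57 to -0.46 for FOSL1 against TNIP2 Input, and 0.24 to 0.74 and -1.24 to -0.24 against Control Pulldown. The upper bounds for FOSL1 lie below the estimates for JUN, JUNB, JUND, FOSL2 and ATF3 in the same comparisons.

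ATF3, a stress-induced bZIP protein that often acts as a repressor, was higher in TNIP2 Pulldown but with 1 library far above its group. Its normalized counts were 695, 587 and 748 in Control Input and 825, 737 and 849 after purification with the tag alone, against 674, 660 and 1606 in TNIP2 Input and 1522, 1525 and 5145 once purified with the fragment. The third TNIP2 Input library lay above the first 2 TNIP2 Pulldown libraries, so these groups overlap, while Control Pulldown and TNIP2 Pulldown do not. The log2 fold change was 1.35 (SE 0.40, 95% interval 0.50 to 2.21, adjusted p = 0.0095) against TNIP2 Input and 1.51 (SE 0.40, adjusted p = 0.0046) against Control Pulldown. Without the third TNIP2 Pulldown library the values were 0.77 (adjusted p = 0.035) and 0.92 (adjusted p = 0.014). Without both TNIP2 libraries numbered 3 they were 1.19 (adjusted p = 3.5e-06) and 0.92 (adjusted p = 1.3e-05). Centring on ribosomal protein genes gave 0.85 (adjusted p = 0.15) and 1.06 (adjusted p = 0.079), and both calls were lost.

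Counted by overlap, 4 of 8 members had every TNIP2 Pulldown library above every TNIP2 Input library, beside 29.4% of all genes tested, and 5 of 8 had every one above Control Pulldown, beside 31.5%. The labels do not say that a replicate number pairs an Input with a Pulldown. Same-numbered TNIP2 Input and Pulldown libraries deviated together (correlations 0.37, 0.46 and 0.50), so the ratio within each number is given as a description. JUN was 5.45, 7.77 and 6.91 times its Input value in replicates 1, 2 and 3, JUNB 3.67, 4.60 and 3.64 times, and FOSL2 2.76, 4.77 and 3.44 times. ATF3, whose groups overlapped, was 2.26, 2.31 and 3.20 times its same-numbered Input, and JUND 1.62, 2.57 and 1.99 times. The FOSL1 ratio was below 1 for each number, 0.375 at the lowest, FOS was above 1 for each (1.12, 1.82 and 1.16), and FOSB was 1.29, 0.286 and 0.619.

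**Figure D2:**
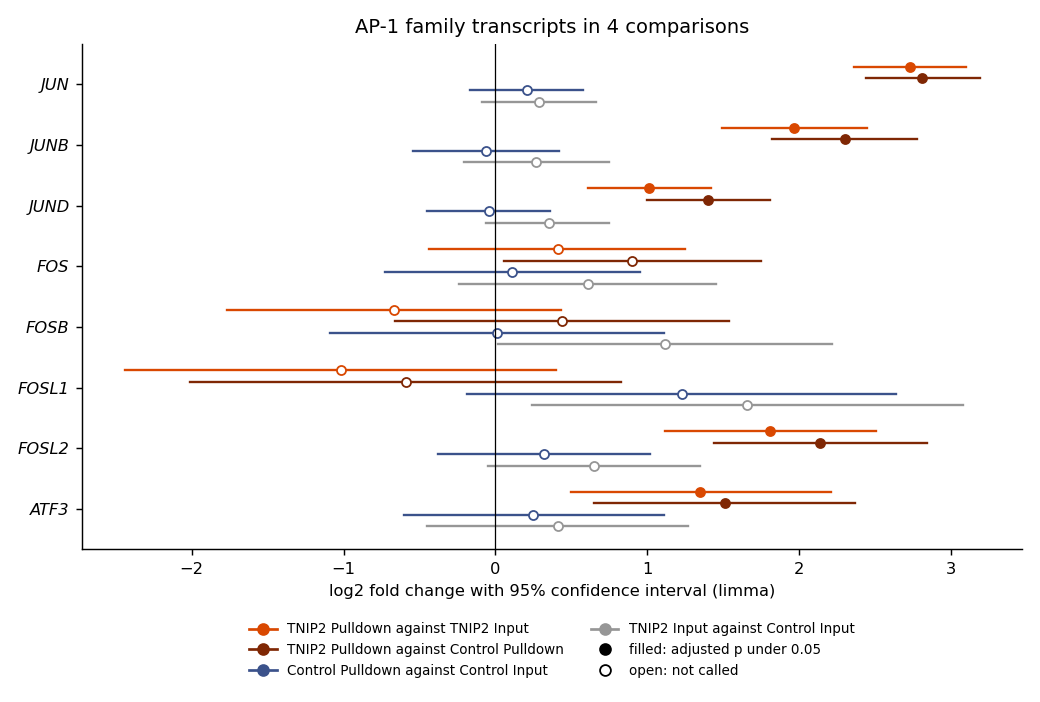
Log2 fold change of each AP-1 family gene in 4 comparisons (the difference of enrichments is not drawn), as points with 95% intervals from limma, filled where the gene was called. In both comparisons of TNIP2 Pulldown the intervals of JUN, JUNB, JUND, FOSL2 and ATF3 lie above 0, while those of FOSB and FOSL1 cross it.

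The tag alone served as the background of the purification. Comparing Control Pulldown with Control Input, limma called none of the 8 members (adjusted p = 1.0 for each), none had an unadjusted p under 0.05, and voom on recovered reads called 0 as well. Over all genes, 0.137% were called in either direction, all 20 of them lower, and 342 had an unadjusted p under 0.05. The log2 differences were 0.21 for JUN (SE 0.18), -0.06 for JUNB, -0.04 for JUND, 0.11 for FOS, 0.01 for FOSB, 0.32 for FOSL2 and 0.25 for ATF3. FOSL1 had the widest difference, 1.23 (SE 0.66), on its few reads. JUN was the member whose 2 control groups did not overlap, 1 of 8, beside 5.83% of genes. Control Pulldown held the shallowest libraries, where 1 read was worth up to 2.87 normalized counts.

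The extracts themselves were compared to see whether the fragment went with other levels of AP-1 RNA before purification. Between TNIP2 Input and Control Input limma called 0 of 8 members, and voom on recovered reads called 0. Over all genes 0.00684% was called, the single gene being TNIP2. All 8 members had a positive log2 difference, with a median of 0.51 where that of all genes was -0.01, and 2 of 8 had an unadjusted p under 0.05, as did 104 of all genes tested. Those 2 were FOSL1 at 1.66 (SE 0.66, adjusted p = 1.0) and FOSB at 1.12 (SE 0.51, adjusted p = 1.0), the members with the fewest reads. JUN, JUND, FOSL1 and FOSL2 had every TNIP2 Input library above every Control Input library, 4 of 8, beside 3.62% of genes. The differences of the others were 0.29 for JUN, 0.27 for JUNB, 0.35 for JUND, 0.61 for FOS, 0.65 for FOSL2 and 0.41 for ATF3. The ATF3 value became -0.01 without the third TNIP2 Input library.

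The difference between the 2 enrichments, Pulldown over Input with the fragment minus the same with the tag alone, was tested as an interaction. The 4 members called higher were JUN at 2.52 (SE 0.25, adjusted p = 4.8e-06), JUNB at 2.03 (SE 0.32, adjusted p = 1.7e-04), JUND at 1.06 (SE 0.27, adjusted p = 0.0056) and FOSL2 at 1.49 (SE 0.46, adjusted p = 0.017). These 4 of 8 stand beside 22.6% of all genes called higher and 20.2% called lower. The median of the members was 1.08 and that of all genes 0.02. ATF3, at 1.10 (95% interval -0.11 to 2.31, adjusted p = 0.13), did not pass, but did with the replicate number as a block (adjusted p = 0.034) and without the third TNIP2 Input library (1.52, adjusted p = 0.027). Without the third TNIP2 Pulldown library it was 0.52 (adjusted p = 0.29), under quantile normalization 0.76 (adjusted p = 0.30) and 0.49 (adjusted p = 0.59) with ribosomal protein genes as the centre. FOSL1 was at -2.25 (95% interval -4.26 to -0.24, adjusted p = 0.066), and was called lower with the block (adjusted p = 0.019). FOS was at 0.30 (adjusted p = 0.70) and FOSB at -0.68 (adjusted p = 0.47). The FOSL2 call was lost without the second TNIP2 Pulldown library (1.24, adjusted p = 0.052), and those of JUND (0.45, adjusted p = 0.24) and FOSL2 (0.88, adjusted p = 0.18) when libraries were centred on ribosomal protein genes.

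**Figure D3:**
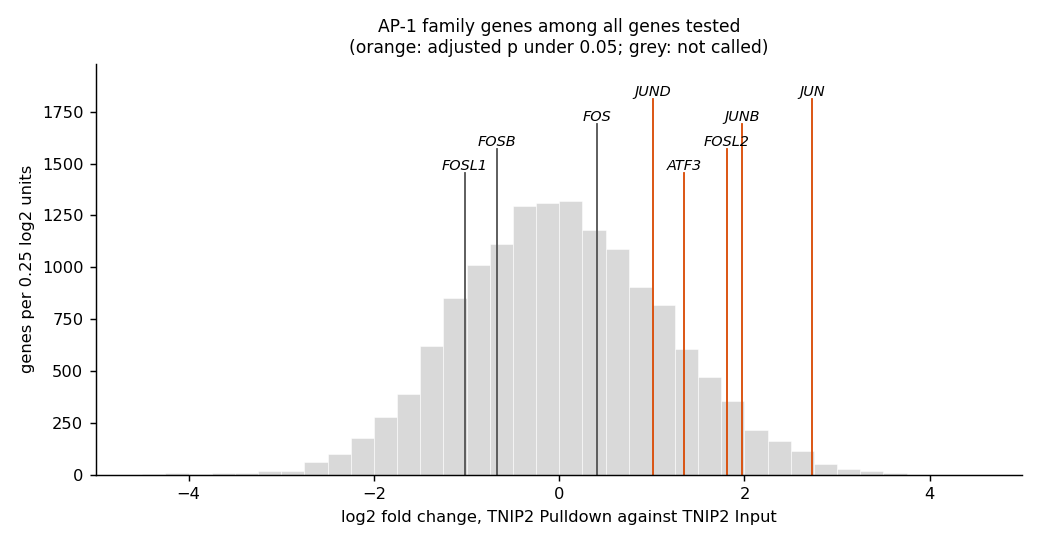
Number of genes tested by log2 fold change of TNIP2 Pulldown against TNIP2 Input, in bins of 0.25, with lines at the 8 AP-1 family genes (orange where called, grey where not; line heights carry no value); the axis runs from -5 to 5 and genes beyond it are not drawn. JUN, at 2.73, lies in the upper tail, and FOSL1, at -1.02, lies below the median of all genes, 0.01.

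The scaling sets where 0 lies in these comparisons. As deposited, 4358 genes were called higher and 4145 lower in TNIP2 Pulldown against TNIP2 Input, so 51.3% of calls were higher. Centring on ribosomal protein genes shifted the median of all genes to -0.50 and made 27.4% of calls higher. Then 3 of 8 members (JUN, JUNB and FOSL2) were called higher, beside 16.3% of all genes tested. Against Control Pulldown the same centring shifted the median to -0.42, with 30.8% of calls higher, and 4 of 8 members (JUND as well) were called higher beside 18.2% of all genes. For the difference of enrichments the shift was to -0.59, with 22.1% of calls higher. JUN, JUNB and FOSL2 kept their calls in both comparisons under either scaling, with 2.23, 1.47 and 1.31 against TNIP2 Input.

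Levels can be compared between genes on the FPKM scale, which divides by length. Between libraries these values carry the scaling of the normalized counts and not that of read totals. The first TNIP2 Pulldown library held 15282061 reads, each worth 0.956 normalized counts. The first TNIP2 Input library held 16752301 reads, each worth 0.625. Scaling by read totals was not tried. In Control Input the order of the mean levels was JUN (47.7 ± 0.618 FPKM, SD, n = 3), ATF3 (23.4 ± 2.84), JUND (20.2 ± 3.94), JUNB (5.71 ± 0.632), FOS (1.35 ± 0.304), FOSL2 (0.781 ± 0.0193), FOSL1 (0.194 ± 0.0630) and FOSB (0.170 ± 0.0669). ATF3 and JUND overlapped there, as did FOSL1 and FOSB. Control Pulldown and TNIP2 Input had the same order of means. In TNIP2 Pulldown it was JUN (395 ± 94.1 FPKM), ATF3 (94.3 ± 72.2), JUND (52.3 ± 12.4), JUNB (27.5 ± 5.37), FOSL2 (4.74 ± 1.96), FOS (2.97 ± 1.26), FOSL1 (0.358 ± 0.306) and FOSB (0.235 ± 0.0687). FOSL2 and FOS changed places, with overlapping ranges of 2.55 to 6.31 and 1.52 to 3.80.

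The makeup of the AP-1 RNA in each fraction is given by shares. The summed FPKM of the 8 members was 577 ± 164 (SD, n = 3) in TNIP2 Pulldown, against 129 ± 29.4 in TNIP2 Input, 111 ± 3.35 in Control Pulldown and 99.5 ± 3.13 in Control Input. JUN held 48.0 ± 1.58%, 49.6 ± 2.86% and 45.8 ± 3.75% of it in the first 3 groups and 69.0 ± 4.91% in TNIP2 Pulldown, where its libraries were at 70.6%, 73.0% and 63.5%. The share of JUND was 20.3% in TNIP2 Input and 9.38% in TNIP2 Pulldown, although its level rose. Among the 3 JUN genes alone, JUN held 64.2% in TNIP2 Input and 83.0% in TNIP2 Pulldown. Among the 4 FOS genes, FOSL2 held 57.0 ± 3.25% in TNIP2 Pulldown, against 28.5 ± 4.30% in TNIP2 Input, 31.7 ± 11.1% in Control Pulldown and 31.7 ± 3.81% in Control Input. The ratio of FOSL2 to FOS was 2.66-fold higher in TNIP2 Pulldown than in TNIP2 Input with no overlap (exact permutation test, two-sided, p = 0.10), and 2.33-fold higher than in Control Pulldown with overlap (p = 0.20, exact permutation test). The shares themselves are descriptions and were not tested.

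**Figure D4:**
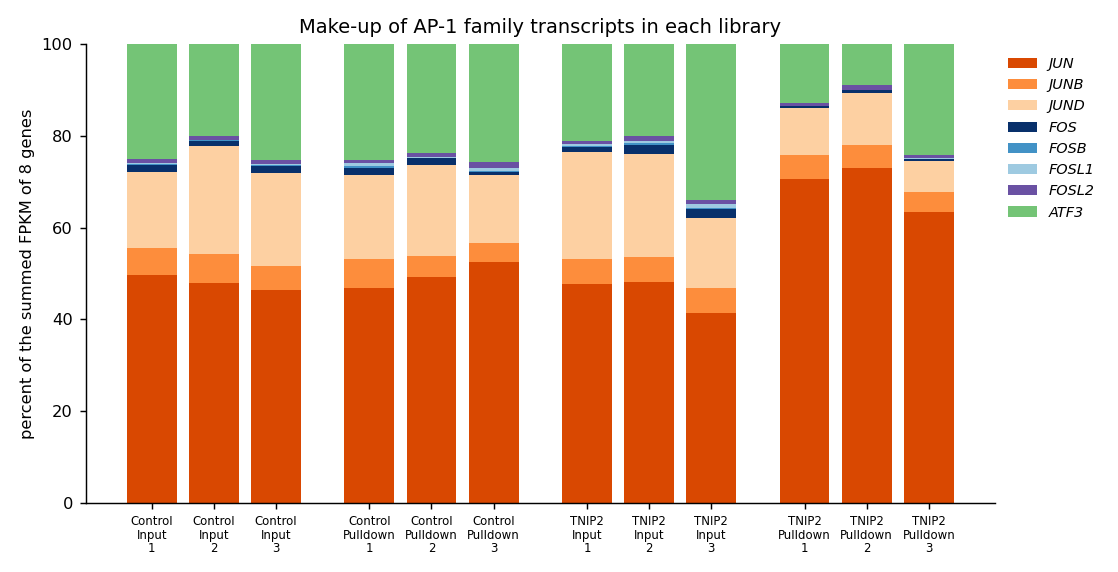
Share of the summed FPKM of the 8 AP-1 family genes held by each, in percent, as a stacked bar for each of the 12 libraries. JUN holds 63.5% to 73.0% in the TNIP2 Pulldown libraries, against group means of 45.8% to 49.6% in the other 3 groups.

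The TNIP2 libraries numbered 3 stood above the others of their groups in several members. The third TNIP2 Input library had the highest value of its group for 6 of 8 members, and the third TNIP2 Pulldown library for 5 of 8. Relative to the mean of the other 2 libraries, ATF3 was 2.41 times as high in the third Input and 3.38 times in the third Pulldown, and FOSL1 3.50 and 3.71 times. TNIP2 was 3.10 and 3.17 times as high in the same libraries. JUND did not share this, at 0.963 and 0.915 times, and JUN was at 1.26 and 1.31 times. The part of these libraries in the ATF3 values is given above by leaving them out; the part of the TNIP2 level in any member's value was not tested.

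The rest of the pathway is described from 5 lists of genes, each read beside all genes tested: 29.8% higher and 28.3% lower with a median of 0.01 against TNIP2 Input, and 30.6% higher and 28.7% lower with a median of 0.03 against Control Pulldown. In TNIP2 Pulldown against TNIP2 Input, the other bZIP partners had 5 of 10 tested members higher and 1 lower (all genes 29.8% and 28.3%), with a median log2 fold change of 0.56. MAF, a bZIP protein that can pair with JUN and FOS, rose from 767 ± 220 to 2059 ± 600 normalized counts (log2 1.42, adjusted p = 1.0e-04), and ATF7, a partner of JUN, fell by 1.19 (adjusted p = 0.0012). Against Control Pulldown the list again had 5 higher and 1 lower.

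The MAP kinases that phosphorylate AP-1 proteins or drive their transcription had 7 of 16 genes higher and 4 lower against TNIP2 Input, with a median of 0.14. The share called lower is near the 28.3% of all genes, and 29.8% of all genes were higher. MAPK9, a JUN N-terminal kinase, rose from 1128 ± 122 to 4208 ± 773 normalized counts (log2 1.89, adjusted p = 3.6e-07), and MAP2K1, which activates the ERK kinases, rose by 1.78 (adjusted p = 8.3e-07). Their relatives went the other way. MAPK3, an ERK kinase, fell by 1.14 (adjusted p = 1.7e-04), and MAP2K2, the other ERK activator, fell by 0.94 (adjusted p = 8.3e-05). Against Control Pulldown 6 of the 16 were higher and 3 lower.

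Of the 9 transcription factors that induce FOS and JUN, 4 were higher and 2 lower against TNIP2 Input (all genes 29.8% and 28.3%), and 5 higher and 2 lower against Control Pulldown (all genes 30.6% and 28.7%). SRF, which binds the CArG box, rose by 1.02 (adjusted p = 3.6e-05), and its coactivator MKL2 rose by 1.02 (adjusted p = 0.011). ELK1, an SRF partner phosphorylated by ERK, fell from 833 ± 127 to 234 ± 6.11 normalized counts (log2 -1.82, adjusted p = 1.4e-07), and its relative ELK4 fell by 0.76 (adjusted p = 0.013). ELK3, in the same list, rose by 0.76 (adjusted p = 0.021) against TNIP2 Input, and its value against Control Pulldown was 0.61 (adjusted p = 0.057). In the list of regulators of AP-1 activity and turnover, 5 of 9 were higher and 2 lower (all genes 29.8% and 28.3%), and against Control Pulldown 6 higher and 1 lower (all genes 30.6% and 28.7%). DUSP16, a phosphatase of JUN N-terminal kinases, rose from 652 ± 147 to 2175 ± 272 normalized counts (log2 1.75, adjusted p = 6.7e-07), and GSK3B, a kinase that marks JUN for degradation, rose by 1.57 (adjusted p = 2.3e-05). DUSP1, a MAP kinase phosphatase, fell by 0.68 (adjusted p = 0.045) against TNIP2 Input, but its value against Control Pulldown was 0.24 (adjusted p = 0.48). DET1, part of a ubiquitin ligase for JUN, fell by 0.63 (adjusted p = 0.0060).

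Commonly cited AP-1 target genes were the thinnest list, with 9 of 15 passing the filter. Of those 9, 4 were higher and 0 lower against TNIP2 Input (median 0.59, all genes 29.8% and 28.3%), and 5 higher and 0 lower against Control Pulldown (all genes 30.6% and 28.7%). HBEGF, a growth factor that binds the EGF receptor, rose from 92.3 ± 52.6 to 396 ± 86.6 normalized counts (log2 2.21, adjusted p = 4.2e-05), and HMOX1, heme oxygenase, rose by 1.75 (adjusted p = 8.9e-04). None of the genes in the 5 lists was called in Control Pulldown against Control Input or in TNIP2 Input against Control Input.

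With libraries centred on ribosomal protein genes, 16.3% of all genes tested were called higher and 43.1% lower against TNIP2 Input, with a median of -0.50. Under that centring the MAP kinases had 5 higher and 6 lower against TNIP2 Input (median -0.37), and the inducers of FOS and JUN 1 higher and 3 lower (median -0.11). The other bZIP partners then had 4 higher and 1 lower, the regulators 2 higher and 3 lower, and the targets 3 higher and 1 lower. Of the genes named from the lists, MKL2 lost its call under that centring (0.51, adjusted p = 0.12) and DUSP1 lost its call under quantile normalization (-0.52, adjusted p = 0.13) and median centring (-0.56, adjusted p = 0.10). The others kept direction and call under the 3 scalings, ELK3 aside, whose values under them are not given.

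**Figure D5:**
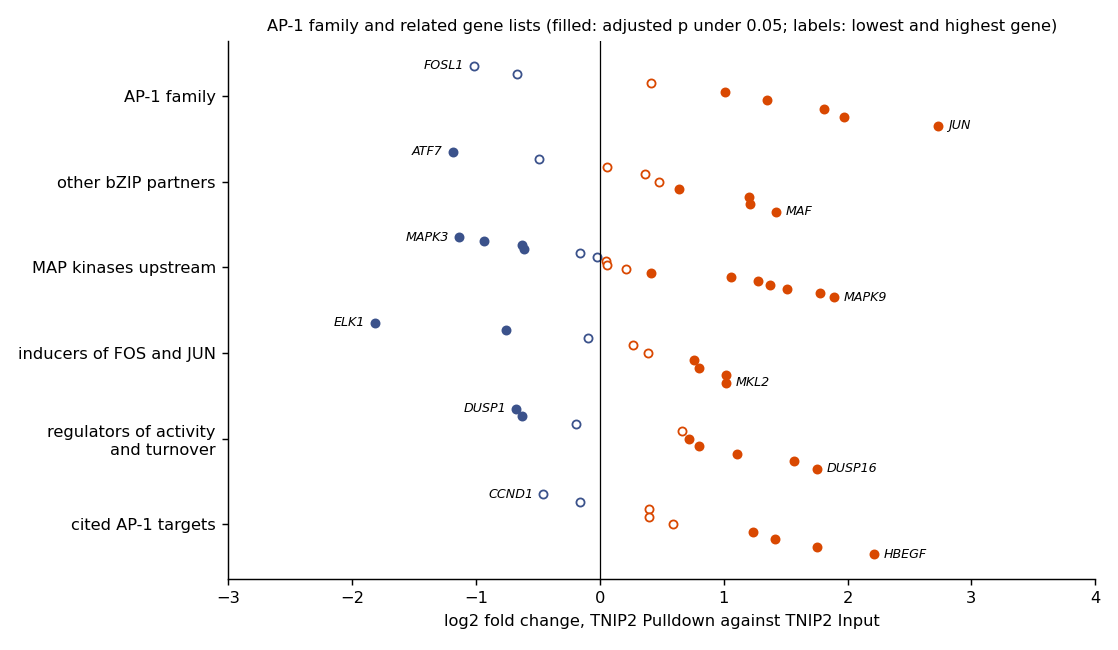
Log2 fold change in TNIP2 Pulldown against TNIP2 Input for each tested gene of the AP-1 family and the 5 pathway lists, 1 point a gene, orange above 0 and blue below, filled where called; points are offset vertically only to keep them apart. Of the other bZIP partners, 1 gene is not drawn. The highest and lowest gene drawn in each list are named, JUN at 2.73 being the highest of all and ELK1 at -1.82 the lowest.

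The genes whose pattern over the 12 libraries was nearest to each member were found among 10532 candidates, by the root mean square difference of log2 profiles centred on their own means. The nearest to JUN were ARPC5L (0.15), KIN (0.17) and FBXO5 (0.20), while JUNB was at 0.36 from JUN and FOSL2 at 0.41. JUNB was nearest to CASZ1 (0.15), ZNF746 (0.16) and RABGEF1 (0.18). JUND was nearest to EWSR1, at 0.06, followed by MLLT1 (0.14) and PATL1 (0.15). For FOSL2 they were ZNFX1 (0.30), DUSP16 (0.33) and CHD2 (0.33), and for ATF3 they were AKAP8L (0.20), MOK (0.25) and ECD (0.25). The nearest was PRR14 at 0.27 for FOS, and lay farther off for the members with the fewest reads, TMEM11 at 0.53 for FOSB and SHC2 at 0.66 for FOSL1. Each of the 8 members had 3 genes nearer to it than any other AP-1 member. The candidates far outnumber the other members, so this cannot show whether the family shares a pattern.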

How the data were processed

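RNA of 12 libraries was analysed from 2 deposited tables, by gene symbol and library. The authors' normalized counts are a deposited score, not raw counts: whole numbers already scaled between libraries. The deposited FPKM values carry the same scaling. Per the submitters' processing notes, TopHat2 2.0.14, DESeq2 1.6.3 and the build hg19 were used. Read counter, strand setting and annotation: not given in the sources used here. C, I and P in the column names match the labels; F was taken for the TNIP2 fragment because no other construct is left.

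Genes with 10 or more normalized counts in at least 3 libraries were tested with limma 3.58.1 in R 4.3.3 (lmFit, eBayes with trend) on log2(value + 1), with 4 group means and 8 residual degrees of freedom, 2-sided, called at a Benjamini-Hochberg adjusted p under 0.05. Since the values were not raw counts, no count model was the main test. Reads were recovered from FPKM steps: 99% to 100% of low values were whole within 0.1 reads, and the recovery was tested on simulated data. voom with limma on those reads was an alternative. Others were filters, pseudocounts, quantile normalization, centring on ribosomal protein genes, the replicate block, leaving out each library and, chosen after seeing the data, median centring.

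Members and lists were chosen with earlier results of these data known. Named genes are the members, TNIP2, the 2 highest and 2 lowest called genes of each list against TNIP2 Input, and the 3 nearest profiles per member (mean normalized count 100 or more). ELK3 is named outside this rule, beside ELK1 and ELK4. From this rule, 1 list gene is not reported here. No 2 libraries were duplicates. TNIP2 Input and Pulldown libraries of the same number deviated together (correlations 0.37, 0.46 and 0.50). For the other pairs of groups compared, the correlations ran from -0.20 to 0.15. Such correlations were not computed for libraries of different numbers, so whether the deviation is particular to same-numbered libraries was not tested.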

Additional observations from a re-analysis of the deposited data

Results flagged for a closer look

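Among the AP-1 genes, 4 differed between the constructs in Pulldown over Input, tested as an interaction in limma over all genes. The difference was 2.52 on the log2 scale for JUN (adjusted p = 4.8e-06), 2.03 for JUNB (adjusted p = 1.7e-04), 1.06 for JUND (adjusted p = 0.0056) and 1.49 for FOSL2 (adjusted p = 0.017). With the fragment, Pulldown was above the Input of the same number in 3 of 3 for each of the 4. With the tag alone it was above in 3 of 3 for JUN, 1 of 3 for JUNB, 1 of 3 for JUND and 2 of 3 for FOSL2. The labels do not say that a number pairs libraries, with either construct.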

How the results depend on the processing

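The limits are 3 libraries a group, the few reads of FOSB and FOSL1, and a scaling that cannot be checked from outside the tables. Over all settings, 944 values of single members kept direction and side of the threshold, 6 lost the call, 13 gained it and 19 changed sign. Centring on ribosomal protein genes left 3 members called in TNIP2 Pulldown against TNIP2 Input. Under it FOS became -0.10 against TNIP2 Input and -0.31 in the difference of enrichments, FOSB became -0.01 against Control Pulldown, and JUNB and JUND became 0.05 and 0.06 in Control Pulldown against Control Input. FOS against Control Pulldown passed under quantile normalization (1.00, adjusted p = 0.047), median centring (1.01, adjusted p = 0.041) and without the third TNIP2 Input library (0.90, adjusted p = 0.046). FOSL1 passed in the difference of enrichments under quantile normalization (-2.68, adjusted p = 0.031), centring on ribosomal protein genes (-2.86, adjusted p = 0.036), without the second Control Pulldown library (-2.90, adjusted p = 0.017) and without the third TNIP2 Pulldown library (-2.80, adjusted p = 0.023). With both TNIP2 libraries numbered 3 left out, ATF3 was -0.01 in TNIP2 Input against Control Input and 0.94 in the difference of enrichments (adjusted p = 4.3e-04), where FOSL1 was -2.23 (adjusted p = 0.049).

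Leaving out 1 library at a time gave, in Control Pulldown against Control Input, -0.25 to 0.06 for JUNB, -0.20 to 0.09 for JUND, -0.08 to 0.41 for FOS and -0.32 to 0.25 for FOSB. It gave -0.0047 to 0.72 for FOS in the difference of enrichments and -0.01 to 0.63 for ATF3 in TNIP2 Input against Control Input. None of these values was called. The replicate block changed the calls of ATF3 (1.10) and FOSL1 (-2.25) in the difference of enrichments and no other member's call. The cause of each change was not tested. FOSB and FOSL1 could not be tested under the stricter filter.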
